A study of Mus musculus with 8 samples.

Results

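The secreted Wnt antagonists are extracellular proteins that keep Wnt ligands from signalling. The 9 genes described here, Frzb, Sfrp1, Sfrp2, Sfrp4, Sfrp5, Wif1, Dkk1, Dkk2 and Dkk3, were taken by name, and all 17 probes whose annotation gives 1 of these symbols and no other were used. They are 9 of 18193 genes, and 17 of 45037 probes, that were read on each array. All 9 genes had at least 1 probe, and 0 probes carried a member symbol together with another one. On build GRCm38.p6 RefSeq places Frzb at chr2:80411970-80447396, Sfrp1 at chr8:23411383-23449632, Sfrp2 at chr3:83765750-83774314, Sfrp4 at chr13:19623175-19632825, Sfrp5 at chr19:42197971-42202252. It places Wif1 at chr10:121034004-121100642, Dkk1 at chr19:30545876-30549496, Dkk2 at chr3:132085266-132180304 and Dkk3 at chr7:112116019-112159482.

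Expression was measured in 8 mammary tumours of female mice (genotype MMTV-PyMT; the strain is FVB/N-Tg(MMTV-PyVT)634Mul/J), in which the MMTV promoter drives the polyoma virus middle T antigen mainly in the mammary epithelium. One group had received SKI-606 at 100 mg/kg by gavage (4 arrays), and the other vehicle (4 arrays). SKI-606, or bosutinib, blocks the tyrosine kinases Src and Abl, and the series asks about tumour differentiation under it. All 8 tumours carried the transgene. The sources used here give neither ages nor the length of treatment. The labels name RNA of each mouse but list no animals, so that the p-values measure the spread between these samples, which may be technical in part.

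Values are array signals recovered from the deposited ratios and quantile normalized. A fold change is on the scale of log2(signal + 16), SKI-606 minus vehicle, ± SE from limma with n = 4 in each group, and this scale understates differences of dim probes. The array median of the recovered signals was 15 to 16 in SKI-606 samples and 15 to 23 in vehicle samples, and a probe with a mean signal under 32 over the 8 arrays is called dim here. The 8 luminal epithelial markers, read to check the tissue label, were all measured above the dim range, and their signals summed to 22784 to 27254 in SKI-606 samples and 23191 to 28129 in vehicle samples. SKI-606 samples 1 and 4 stood apart over all probes, with first principal component scores of 81.1 and 72.4 against -25.1 to -22.4 in the other SKI-606 samples and -38.5 to -14.8 in vehicle samples. These 2 samples and vehicle sample 3 also held the squamous and hair follicle keratin signals. The sum of the 8 squamous markers was 12306 and 14325 in SKI-606 samples 1 and 4 and 8118 in vehicle sample 3, and 170 to 376 in the other 5 samples.

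Wnt proteins bind Frizzled receptors together with the co-receptors Lrp5 and Lrp6, which stabilises beta-catenin and turns on target genes with TCF and LEF factors. The secreted frizzled-related proteins (Frzb, Sfrp1, Sfrp2, Sfrp4 and Sfrp5) carry a cysteine-rich domain like that of Frizzled and bind Wnt ligands outside the cell, and Wif1 binds ligands through another domain. Dkk1 and Dkk2 act on Lrp5 and Lrp6, while Dkk3 is a divergent family member that is not a typical antagonist of Lrp6. Silencing of several of them by promoter methylation is known from human breast cancer.

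Stretches before a transcript start are shown for 4 members because their signals varied in different ways. Frzb had the widest difference between the groups, Sfrp2 and Wif1 shared with Frzb the highest signals in SKI-606 samples 1 and 4, and Dkk1 was the member whose representative probe lay lowest in SKI-606 samples. They are the 250 bases before a transcript start, 5′ to 3′ on the strand of the gene, from RefSeq on build GRCm38.p6. For Frzb, Wif1 and Dkk1 this start is the outer end of the gene span given above. For Sfrp2 it is a start inside the span, so that the stretch shown lies within the annotated gene and not upstream of it. Capitals mark the letters CTTTGA on either strand, the core of the TCF/LEF motif, and TATAA on the strand of the gene. The Frzb stretch lies at chr2:80447397-80447646 on the minus strand, that of Sfrp2 at chr3:83766071-83766320 on the plus strand, that of Wif1 at chr10:121033754-121034003 on the plus strand and that of Dkk1 at chr19:30549497-30549746 on the minus strand.
Frzb: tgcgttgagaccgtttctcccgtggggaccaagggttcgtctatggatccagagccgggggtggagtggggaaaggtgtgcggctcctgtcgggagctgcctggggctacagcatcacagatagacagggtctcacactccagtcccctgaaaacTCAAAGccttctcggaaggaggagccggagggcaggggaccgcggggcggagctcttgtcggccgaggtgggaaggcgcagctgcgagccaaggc
Sfrp2: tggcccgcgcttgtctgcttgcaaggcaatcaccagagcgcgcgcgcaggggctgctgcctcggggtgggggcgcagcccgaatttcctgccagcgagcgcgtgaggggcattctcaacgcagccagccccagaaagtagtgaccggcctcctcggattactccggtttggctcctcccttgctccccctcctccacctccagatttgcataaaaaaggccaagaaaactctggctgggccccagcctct
Wif1: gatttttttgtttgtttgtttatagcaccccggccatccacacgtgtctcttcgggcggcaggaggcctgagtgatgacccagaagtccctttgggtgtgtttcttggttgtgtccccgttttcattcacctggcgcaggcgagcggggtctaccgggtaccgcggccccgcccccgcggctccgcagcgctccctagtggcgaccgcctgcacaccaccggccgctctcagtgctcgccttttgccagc
Dkk1: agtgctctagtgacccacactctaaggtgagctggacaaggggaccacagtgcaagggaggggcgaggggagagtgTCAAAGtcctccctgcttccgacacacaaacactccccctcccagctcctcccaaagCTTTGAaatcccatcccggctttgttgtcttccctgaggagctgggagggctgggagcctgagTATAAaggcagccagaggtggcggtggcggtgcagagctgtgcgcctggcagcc

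Of the 9 members, 6 were matched to a start in the table, the other two besides these 4 being Sfrp5 and Dkk2. The letters CTTTGA occurred 2 times in the Dkk1 stretch, 117 to 112 bases before the start on the strand of the gene and 174 to 169 bases before it on the other strand. They occurred 1 time in the Frzb stretch, 95 to 90 bases before the start on the other strand, and were not found in those of Sfrp2, Sfrp5, Wif1 and Dkk2. Of all 32851 stretches of this length, 13.8% held these letters. TATAA was found in the stretches of Dkk1 and Dkk2 and in 5255 of all 32851. The share of G and C was 64.4% for Frzb, 63.6% for Sfrp2, 62.8% for Wif1 and 60.8% for Dkk1, against a median of 52.4% over all stretches. Wif1 had 21 CG pairs, Frzb and Sfrp2 had 16 each, and Dkk1 had 6, which equals the median of all stretches. No methylation was measured in these samples.

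Across the members, 1 gene, Frzb, had all 4 SKI-606 signals above all 4 vehicle signals, and the others overlapped between the groups. Of the 17 probes, 14 had a log2 fold change above 0, beside 20842 of all 45037 probes. The median over the 9 genes, each by its probe of highest mean signal, was 0.53, beside -0.02 over all 18193 genes. In limma 0 of the 17 probes passed an adjusted p under 0.05, as did 0 of all 45037 probes (0%), and the smallest adjusted p of a member was 0.519. At an unadjusted p under 0.05, 2 member probes (Frzb and Dkk3) were higher in SKI-606 samples, where 4.59% of all probes were, and 1 (Dkk1) was lower, where 3.79% of all were. The groups did not overlap in 1 of 17 member probes, with SKI-606 above, and in 1.83% of all probes. In the other direction the share was 1.86% of all probes and 0 of the members. Probes of a gene share its transcripts and are not independent of each other.

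**Figure D1:**
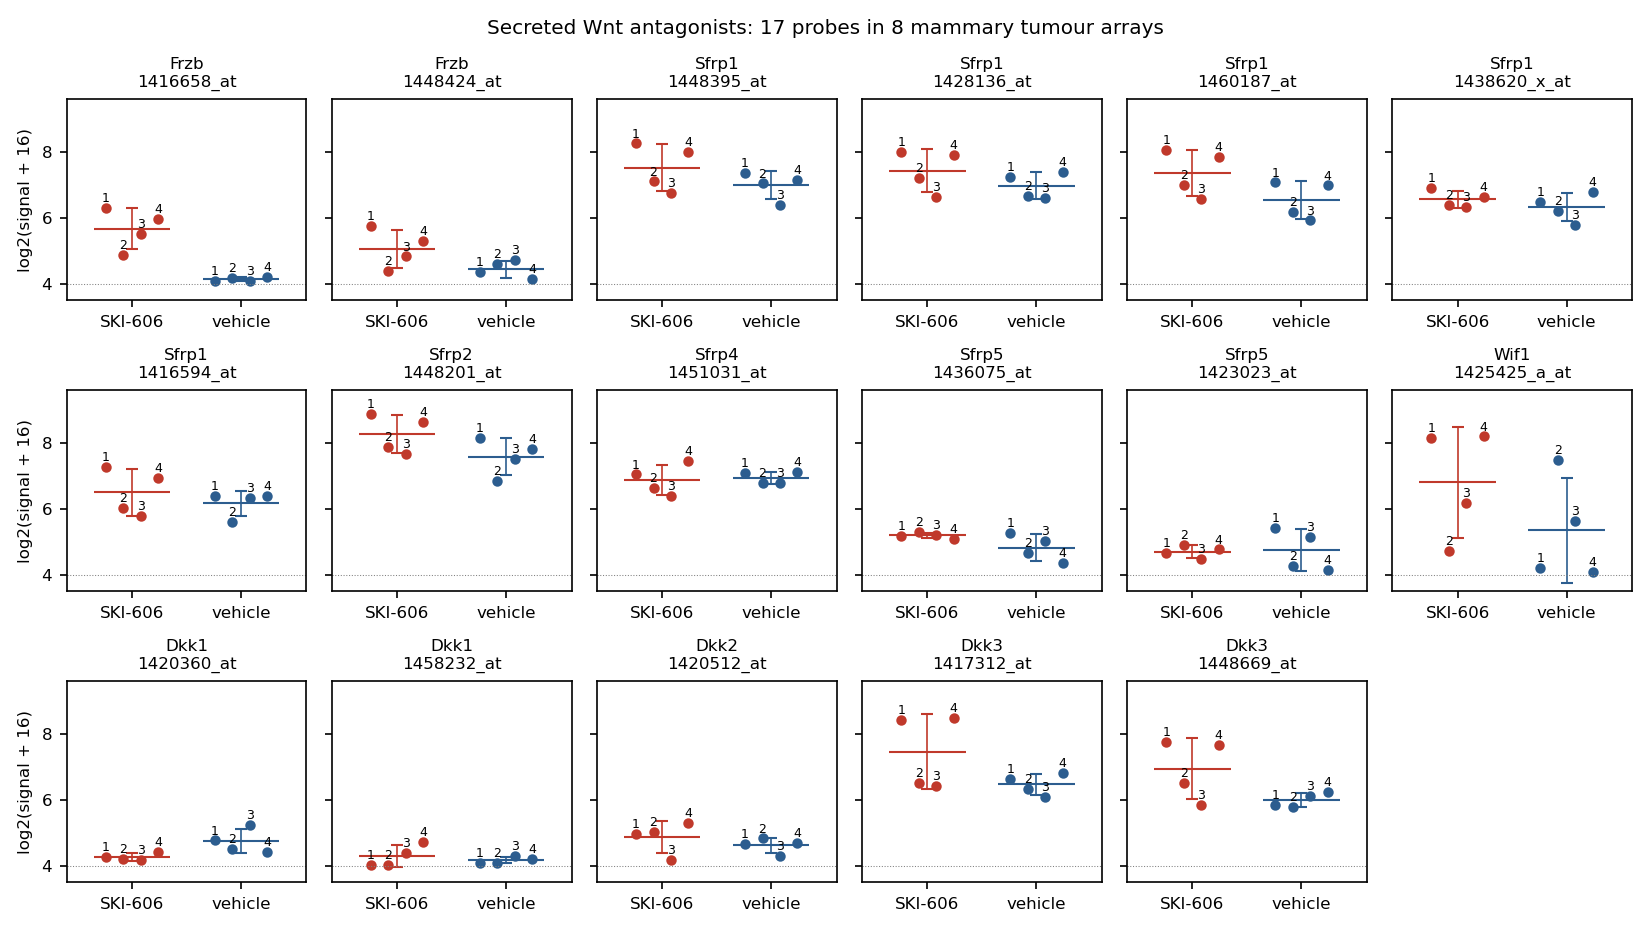
Each panel plots 1 probe of the 9 genes, with log2(signal + 16) on the vertical axis for the 4 SKI-606 samples (red, left) and the 4 vehicle samples (blue, right), numbered by replicate. Horizontal lines are group means, vertical bars the SD, and the dotted line at 4 is a signal of 0. The first Frzb panel is the one without overlap, and the Dkk3 panels show SKI-606 samples 1 and 4 far above the other 6.

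SKI-606 samples 1 and 4 held the 2 highest signals in 10 of the 17 member probes (58.8%), and in 3851 of all 45037 probes (8.6%). Without these 2 samples and vehicle sample 3, the median over the 9 genes was -0.12, and 4 of 9 lay above 0. At 2 samples against 3, Frzb (its probe of higher mean) then had all SKI-606 signals above vehicle. Sfrp4 and Dkk1 (its probe of higher mean) had all SKI-606 signals below vehicle. Groups this small separate more easily than 4 against 4, so that these separations are not read as a result about the members. For this split, the shares of all probes that separated or lay above 0 are not given here. SKI-606 samples 1 and 4 and vehicle sample 3 were left out because of their marker signals. Since SKI-606 samples 1 and 4 held many of the highest member signals, a lower median without them follows in part from this choice. Vehicle sample 3 was the lowest array in 6 of the 17 member probes (35.3%) and in 15.9% of all probes, which acts in the same direction. The lower median is therefore not read as a separate result.

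Frzb, also known as secreted frizzled-related protein 3, is a ligand-binding antagonist known from cartilage and bone. By its probe of higher mean the signals were 63.2, 13.4, 29.8 and 46.4 in SKI-606 samples 1 to 4, and 1.1, 2.0, 0.9 and 2.5 in vehicle samples 1 to 4. All 4 vehicle signals were near 0. SKI-606 samples 1, 3 and 4 lay well above them, while SKI-606 sample 2, though above every vehicle sample, was under the array median. Its difference on the log2 scale was 1.53 ± 0.27, with a 95% interval of 0.92 to 2.14, an unadjusted p of 0.000261 and an adjusted p of 0.519 in limma. The size depended on how dim values were treated, from 0.61 with a pseudocount of 64 to 4.60 on the log2 of the deposited ratios, it was 1.07 with the mean of both probes, and no ratio of the means is given because the vehicle signals were near the floor of the array. Without SKI-606 samples 1 and 4 and vehicle sample 3 the value was 1.04 ± 0.23, with an adjusted p of 1.0.

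The other probe of Frzb was dim as well and less separated. It had signals of 37.4, 4.9, 12.4 and 23.0 in SKI-606 samples 1 to 4, and 4.4, 8.1, 10.1 and 1.6 in vehicle samples 1 to 4. SKI-606 sample 2 lay within the vehicle range here, and the other 3 lay above it. SKI-606 minus vehicle, the value was 0.61 ± 0.28 (95% interval -0.01 to 1.23), with an adjusted p of 0.598. Both probes put SKI-606 samples 1 and 4 highest, and their log2 values had a Pearson r of 0.86 over the 8 samples.

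Sfrp1 binds Wnt ligands and is known from mammary stroma and epithelium. Its probe of highest mean had signals of 289, 122, 92.1 and 237 in SKI-606 samples 1 to 4, and 150, 115, 67.9 and 127 in vehicle samples 1 to 4. SKI-606 samples 1 and 4 lay above every vehicle sample, and the other 2 lay within the vehicle range. The log2 fold change was 0.53 ± 0.35 (95% interval -0.24 to 1.31, adjusted p of 0.707 in limma). Leaving out SKI-606 sample 1 gave 0.29, leaving out vehicle sample 3 gave 0.33, and leaving out SKI-606 sample 3 gave 0.79 (unadjusted p of 0.0381).

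The 5 probes of Sfrp1 gave log2 fold changes from 0.25 to 0.83, all above 0. The widest, 0.83 ± 0.38, had an unadjusted p of 0.0535, and its groups overlapped. All 5 put SKI-606 sample 1 highest, and 4 of them put SKI-606 sample 4 next. Without SKI-606 samples 1 and 4 and vehicle sample 3 the values of the 5 probes lay between -0.26 and 0.04, and that of the first was -0.26 ± 0.20.

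Sfrp2, a ligand-binding family member known from fibroblasts, had signals of 448, 219, 187 and 381 in SKI-606 samples 1 to 4, and 267, 98.2, 167 and 209 in vehicle samples 1 to 4. The 2 highest were again SKI-606 samples 1 and 4, and SKI-606 samples 2 and 3 lay among vehicle samples 1, 3 and 4. Its difference on the log2 scale was 0.68 ± 0.34 (95% interval -0.08 to 1.44, adjusted p of 0.626). It was 0.43 without vehicle sample 2 and 0.17 ± 0.39 with SKI-606 samples 1 and 4 and vehicle sample 3 left out.

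Sfrp4, which is known as a ligand-binding protein of stroma and bone, had signals of 116, 83.0, 68.2 and 158 in SKI-606 samples 1 to 4, and 119, 94.1, 93.5 and 123 in vehicle samples 1 to 4. SKI-606 sample 4 was the highest and SKI-606 samples 3 and 2 the lowest of all 8. SKI-606 minus vehicle, the value of -0.06 ± 0.23 had a 95% interval of -0.57 to 0.45 and turned to 0.17 with arrays scaled to a common median and to 0.20 on the log2 of the deposited ratios. With SKI-606 samples 1 and 4 and vehicle sample 3 left out it was -0.48 ± 0.19, with an unadjusted p of 0.0450 and an adjusted p of 1.0.

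Sfrp5 was dim by both probes. The one of higher mean had signals of 20.6, 23.2, 20.8 and 18.2 in SKI-606 samples 1 to 4, and 22.6, 9.1, 16.5 and 4.5 in vehicle samples 1 to 4. The SKI-606 signals lay close together, and the vehicle signals spread from below them to within their range. The log2 fold change was 0.37 ± 0.20 (95% interval -0.07 to 0.82), against -0.04 ± 0.29 for the other probe. It was 0.17 with the mean of both probes, 0.22 without vehicle sample 4 and 0.52 without vehicle sample 1 (unadjusted p of 0.0206).

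Wif1, which binds Wnt ligands through its own WIF domain, had the widest spread of log2 values within each group of all 17 probes. Its signals were 268, 10.1, 56.4 and 276 in SKI-606 samples 1 to 4, and 2.4, 162, 33.5 and 1.0 in vehicle samples 1 to 4. SKI-606 samples 1 and 4 and vehicle sample 2 were high, whereas vehicle samples 1 and 4 gave almost no signal, and so both groups held high and low tumours. Its difference on the log2 scale of 1.46 ± 0.92 had a 95% interval of -0.61 to 3.53 and an adjusted p of 0.699. Leaving out single samples moved it between 1.0 (without SKI-606 sample 4) and 2.17 (without vehicle sample 2), and leaving out SKI-606 samples 1 and 4 and vehicle sample 3 together gave 0.19 ± 1.08. The squamous sum was 8118 in vehicle sample 3, where Wif1 was 33.5, and 170 in vehicle sample 2, where Wif1 was 162.

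Among the Dickkopf genes, Dkk3 had the largest difference. Its probe of higher mean had signals of 325, 75.4, 70.2 and 342 in SKI-606 samples 1 to 4, and 83.6, 64, 52.5 and 96.8 in vehicle samples 1 to 4. SKI-606 samples 1 and 4 were more than 3 times as high as any vehicle sample, and SKI-606 samples 2 and 3 lay inside the vehicle range. SKI-606 minus vehicle, the value was 0.99 ± 0.48 (95% interval -0.09 to 2.08, unadjusted p of 0.0692, adjusted p of 0.621). It was 0.65 without SKI-606 sample 4 and -0.12 ± 0.20 with SKI-606 samples 1 and 4 and vehicle sample 3 left out.

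The other Dkk3 probe had signals of 198, 74.4, 41.1 and 187 in SKI-606 samples 1 to 4, and 41.8, 38.5, 53.8 and 59.5 in vehicle samples 1 to 4. Here SKI-606 samples 1, 2 and 4 lay above every vehicle sample. The log2 fold change was 0.94 ± 0.39 (95% interval 0.05 to 1.82), with an unadjusted p of 0.0399 and an adjusted p of 0.584. The 2 probes had a Pearson r of 0.94 over the 8 samples.

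Dkk1, which binds Lrp5 and Lrp6 and is itself known as a Wnt target gene, was the member with a representative log2 fold change below 0 whose interval left out 0. By its probe of higher mean the signals were 3.4, 2.4, 2.0 and 5.5 in SKI-606 samples 1 to 4, and 11.4, 7.0, 21.9 and 5.5 in vehicle samples 1 to 4. All 8 signals were low, the highest being that of vehicle sample 3. SKI-606 samples 1 to 3 lay below every vehicle sample, and SKI-606 sample 4 did not. Its difference on the log2 scale was -0.47 ± 0.19 (95% interval -0.90 to -0.05), with an unadjusted p of 0.0323 and an adjusted p of 0.574. It was -0.16 with a pseudocount of 64 (unadjusted p of 0.0558), -0.18 with the mean of both probes (0.269), -0.31 without vehicle sample 3 (0.0706), -0.99 with a pseudocount of 4 and -1.74 on the deposited ratios, so that its size and its interval depended on these choices. The other Dkk1 probe stood at 0.11 ± 0.18 with a mean signal of 3.0 and had an r of 0.05 with the first, and with signals this low the pair gives no common pattern. Dkk2, which also acts on Lrp6, was dim too. It had signals of 15.5, 16.5, 2.0 and 23.0 in SKI-606 samples 1 to 4 and 9.1, 12.4, 3.6 and 10 in vehicle samples 1 to 4, with a log2 fold change of 0.25 ± 0.24 (95% interval -0.29 to 0.78). Leaving out single samples moved Dkk2 to 0.11 where SKI-606 sample 4 was dropped, to 0.14 for vehicle sample 3 and to 0.48 for SKI-606 sample 3 (unadjusted p of 0.0253).

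**Figure D2:**
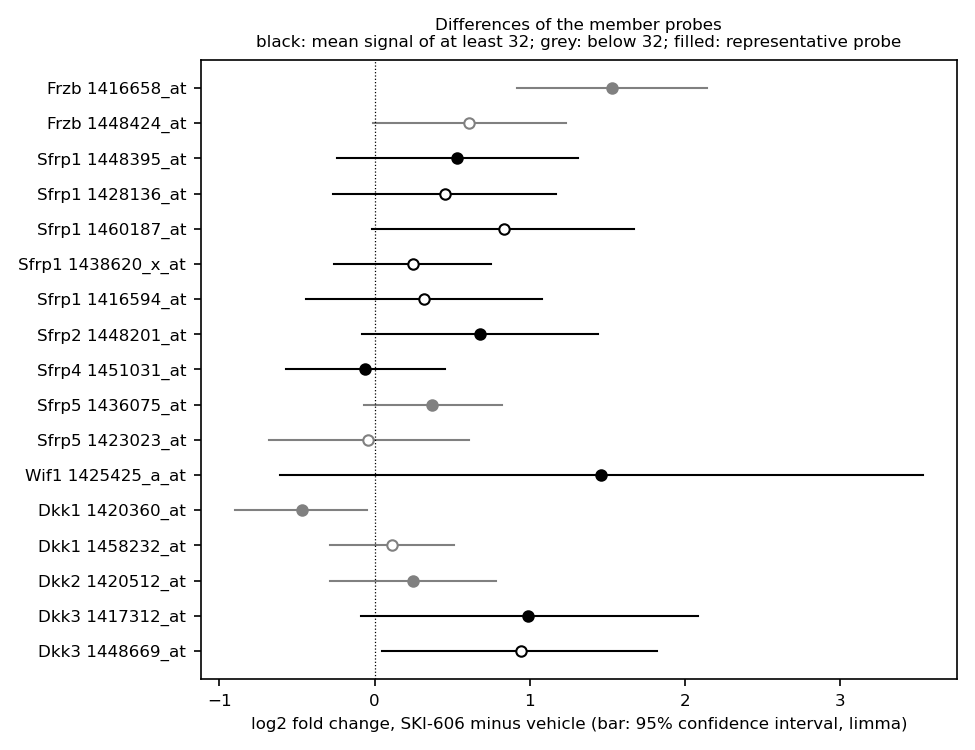
The horizontal axis gives the log2 fold change, SKI-606 minus vehicle, of each of the 17 probes, with its 95% confidence interval from limma as a bar. Filled circles are the representative probes, grey marks dim probes with a mean signal below 32, and the intervals of 1 Frzb, 1 Dkk1 and 1 Dkk3 probe do not reach 0.

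Markers of stromal cells were read beside the members. Fibroblast markers had sums of 30892, 24644, 17644 and 32698 in SKI-606 samples 1 to 4, and of 17393, 15876, 13904 and 16552 in vehicle samples 1 to 4, with 10 of 10 genes above 0 in log2 fold change and a median of 0.76. Smooth muscle and pericyte markers reached 6623 and 5021 in SKI-606 samples 1 and 4, against 1312 and 1827 in the other SKI-606 samples and 1081 to 2008 in vehicle samples. Endothelial sums were 702 to 1448 in SKI-606 and 500 to 837 in vehicle samples, and macrophage sums were 7279 to 17093 in SKI-606 and 4512 to 8625 in vehicle samples. In each of these lists the 2 highest sums were those of SKI-606 samples 1 and 4, as for Sfrp1, Sfrp2 and Dkk3. Their part in the results was not tested, and in whole tumours more cells of a type and more RNA per cell cannot be told apart.

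Basal and myoepithelial, squamous and hair follicle sums were likewise highest in SKI-606 samples 1 and 4. The skeletal muscle, adipocyte and cartilage lists had other patterns. Basal and myoepithelial sums were 8311, 834, 1625 and 10021 in SKI-606 samples 1 to 4, and 1714, 2041, 4381 and 2329 in vehicle samples 1 to 4. Sums of the 10 hair follicle markers were 9338 and 11638 in SKI-606 samples 1 and 4, 60 and 72 in SKI-606 samples 2 and 3, 3669 in vehicle sample 3 and 86 to 118 in the other vehicle samples. Sfrp1, Frzb and Dkk3 (both by the probe of higher mean) had their lowest signal in vehicle sample 3, where the hair follicle and squamous markers were high. Vehicle sample 3 was the lowest array for these 3 of 9 members and for 15.9% of all probes. Other probes of the same genes differed, with vehicle sample 3 the highest vehicle sample by the other Frzb probe, and vehicle sample 2 the lowest array by the other Dkk3 probe and by 1 of the 5 Sfrp1 probes. Skeletal muscle sums were highest in vehicle sample 1 (20648) and SKI-606 sample 2 (14241), and adipocyte sums in SKI-606 sample 2 (5227) and vehicle sample 4 (1992). Cartilage markers, listed because Frzb is known there, were 1924 to 3636 in SKI-606 and 2262 to 3493 in vehicle samples. The 6 cartilage genes had a median of 0.15 in log2 fold change, and most of the summed signal came from Col9a1, a cartilage collagen gene that stood at -0.50 ± 0.28. The dim Acan and Matn3 stood at -0.02 and 0.20, and Comp stood at 0.10. Sox9, a transcription factor of cartilage and of epithelial progenitors, stood at 0.91 ± 0.19 (adjusted p of 0.519), and Col2a1, another cartilage collagen gene, at 2.25 ± 0.80 (adjusted p of 0.560). Col2a1 had signals of 681, 24.9, 56.4 and 258 in SKI-606 samples 1 to 4 and of 9.1, 23.4, 3.0 and 42.1 in vehicle samples 1 to 4. The part of these tissues in the members' values was not tested.

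**Figure D3:**
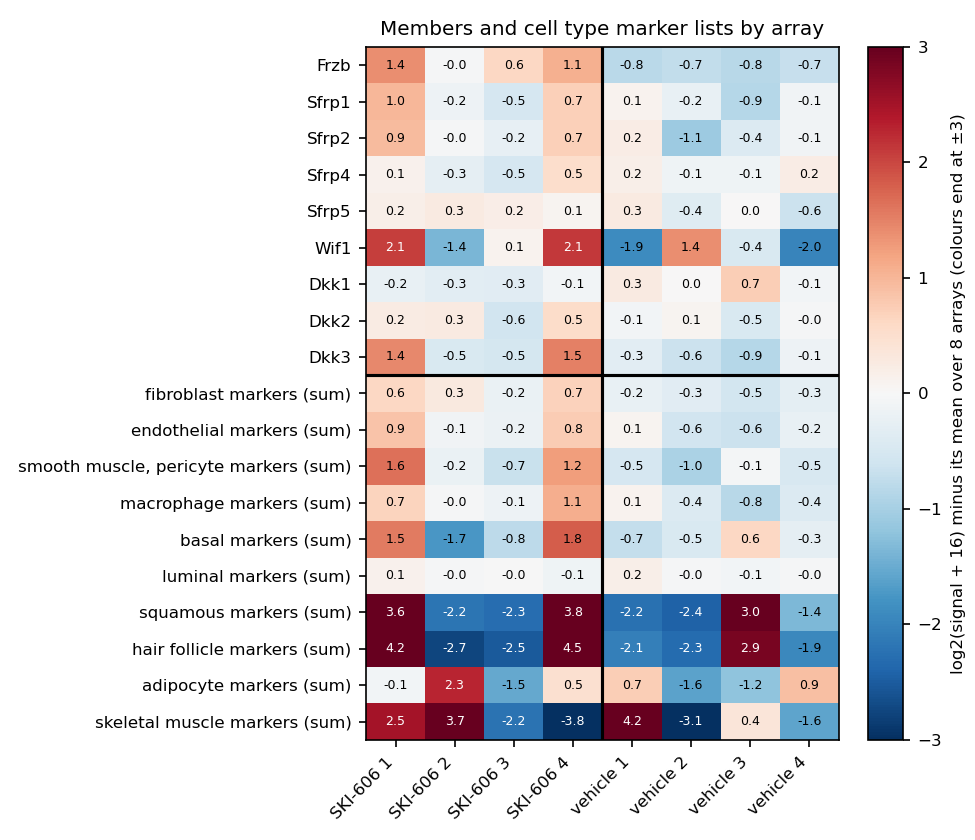
Rows are the 9 members (representative probe, above the line) and the summed signals of 10 marker lists (below it), columns the 4 SKI-606 samples and then the 4 vehicle samples. Each cell gives log2(signal + 16) minus its mean over the 8 arrays, with red for higher and blue for lower. Sfrp1, Sfrp2 and Dkk3 are red in SKI-606 samples 1 and 4, Frzb is blue in all 4 vehicle samples, and the squamous and hair follicle rows are red in vehicle sample 3 as well.

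Between members, the log2 values of Dkk3 and Sfrp1 had a Pearson r of 0.93 over the 8 samples, those of Dkk3 and Sfrp2 of 0.85, those of Sfrp1 and Sfrp2 of 0.81, and those of Dkk3 and Frzb of 0.81. Wif1 was less close, with an r of 0.69 with Frzb and 0.64 with Dkk3. These values are descriptions over 8 arrays that share SKI-606 samples 1 and 4 as a separate pair. Among 7257 other genes with a mean signal of at least 100, those most like Dkk3 were Timp1 (r = 0.993), an inhibitor of metalloproteinases, Coro1a (0.991), an actin regulator of leukocytes, and Pdgfb (0.984), a growth factor of pericytes and fibroblasts. Those most like Sfrp1 were Tagln2 (0.987), Mfap2 (0.974) and Gstm2 (0.973), with Mfap2 encoding a protein of matrix microfibrils. Sfrp2 was most like Hip1r (0.977), Plat (0.976), which encodes tissue plasminogen activator, and Zfand2a (0.970). Wif1 was most like Bcr (0.990), Dnmt3a (0.967), a DNA methyltransferase gene, and Lad1 (0.957), and Sfrp4 was most like Yars (0.942), Arhgap17 (0.936) and the superoxide dismutase gene Sod2 (0.907). Frzb, Sfrp5, Dkk1 and Dkk2 were too dim for this comparison.

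The remaining genes of the pathway were read by role, and in each of the lists 0 genes passed an adjusted p under 0.05. Of all 18193 genes by their representative probe, 6.08% were higher and 4.34% lower in SKI-606 samples at an unadjusted p under 0.05, and the counts in the lists are to be read beside these shares. All 19 Wnt ligand genes were measured, 11 of them dim, with a median log2 fold change of 0.18 and 2 genes higher in SKI-606 samples at an unadjusted p under 0.05. Wnt5b, a ligand of beta-catenin-independent signalling, had signals of 610, 425, 521 and 582 in SKI-606 samples 1 to 4, and 214, 347, 130 and 271 in vehicle samples 1 to 4. All SKI-606 tumours lay above all vehicle tumours, also SKI-606 samples 2 and 3, and the log2 fold change was 1.17 ± 0.26 (adjusted p of 0.519), with 0.78 ± 0.24 for its other probe. Wnt9a stood at 0.93 ± 0.30 without overlap of the groups. Its other probe, which was dim with a mean signal of 7.52, stood at -0.11 ± 0.21. Wnt7b, a ligand of epithelium, stood at 0.72 ± 0.34.

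Of 17 receptors and co-receptors listed, 16 were measured, with a median of 0.16 and 1 at an unadjusted p under 0.05. This was Fzd1, a Frizzled receptor, at 0.83 ± 0.31, with signals of 821, 623, 412 and 1250 in SKI-606 samples 1 to 4 and of 332, 456, 324 and 497 in vehicle samples 1 to 4. Only SKI-606 sample 3 lay within the vehicle range. Fzd2 stood at 0.54 ± 0.36 and Fzd7 at 0.23 ± 0.16. The 9 genes of the R-spondin axis, which raises the level of Wnt receptors at the cell surface, had a median of -0.08, with 1 gene, the dim receptor Lgr5, at an unadjusted p under 0.05 (0.75 ± 0.32), with Lgr4 at -0.09 ± 0.21, and with the ligases Rnf43 and Znrf3, which remove Frizzled from the membrane, at -0.22 ± 0.21 and -0.39 ± 0.33.

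The 10 other extracellular inhibitors had a median of 0.11 and 1 gene in each direction at an unadjusted p under 0.05. The one that was higher was Igfbp4, an IGF-binding protein that is also known to bind Lrp6 and Frizzled. Its signals were 4008, 2369, 2393 and 4325 in SKI-606 samples 1 to 4, and 1817, 1603, 1582 and 1662 in vehicle samples 1 to 4. The groups did not overlap, and the vehicle values lay close together. SKI-606 minus vehicle, the value was 0.91 ± 0.22 (adjusted p of 0.519), and its 6 probes stood between 0.91 and 1.74. The one that was lower, Sost, was dim, with means of 3.75 in SKI-606 and 10.9 in vehicle samples, and is named here because it makes up that count. Dkkl1, a relative of Dkk3, had signals of 145, 620, 735 and 183 in SKI-606 samples 1 to 4 and of 848, 356, 457 and 858 in vehicle samples 1 to 4, with a log2 fold change of -0.78 ± 0.53. It was lowest in SKI-606 samples 1 and 4, where Dkk3 was highest. Apcdd1, a membrane-bound Wnt inhibitor, stood at 0.95 ± 0.84.

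Inside the cell, the 15 measured genes of the cascade (of 16 listed) had a median of -0.01 and values from -0.18 to 0.38, the highest being the dim Lef1, a TCF/LEF factor and the 1 gene at an unadjusted p under 0.05, with Gsk3a at -0.18 ± 0.14, Tcf7l2 at 0.28 ± 0.19 and Pygo2 at 0.23 ± 0.18. The 14 measured target genes had a median of 0.33, with 4 higher at an unadjusted p under 0.05 and 0 lower, namely Ccn4, Nkd2 and, again, Lgr5 and Lef1. Ccn4 (also called Wisp1), a matricellular target gene, had signals of 100, 69.5, 40.4 and 142 in SKI-606 samples 1 to 4, and 24.6, 35.8, 28.6 and 17.5 in vehicle samples 1 to 4. All SKI-606 samples lay above the vehicle samples, and the log2 fold change was 1.20 ± 0.30 (adjusted p of 0.519). The other Ccn4 probe, which was dim with a mean signal of 9.11, stood at 0.70 ± 0.24. Nkd2, a feedback inhibitor that binds Dishevelled, stood at 1.39 ± 0.59, and its groups overlapped. The Nkd2 signals were 578, 168, 148 and 848 in SKI-606 samples 1 to 4, and 52.5, 115, 256 and 118 in vehicle samples 1 to 4. Cd44 stood at 0.46 ± 0.29.

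Axin2, a feedback inhibitor and common readout of beta-catenin signalling, was looked up after the values were seen. It had signals of 153, 35, 35 and 170 in SKI-606 samples 1 to 4, and 20.6, 34.8, 406 and 40.5 in vehicle samples 1 to 4. The 3 tumours with high squamous markers were thus the 3 with high Axin2, in both groups, and the log2 fold change between the groups was 0.22 ± 0.77 (adjusted p of 0.959), with 0.01 ± 0.41 for its other, dim probe. Of these 3, SKI-606 samples 1 and 4 had the highest signals of Sfrp1, Sfrp2, Dkk3 and Frzb, and vehicle sample 3 had low ones.

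**Figure D4:**
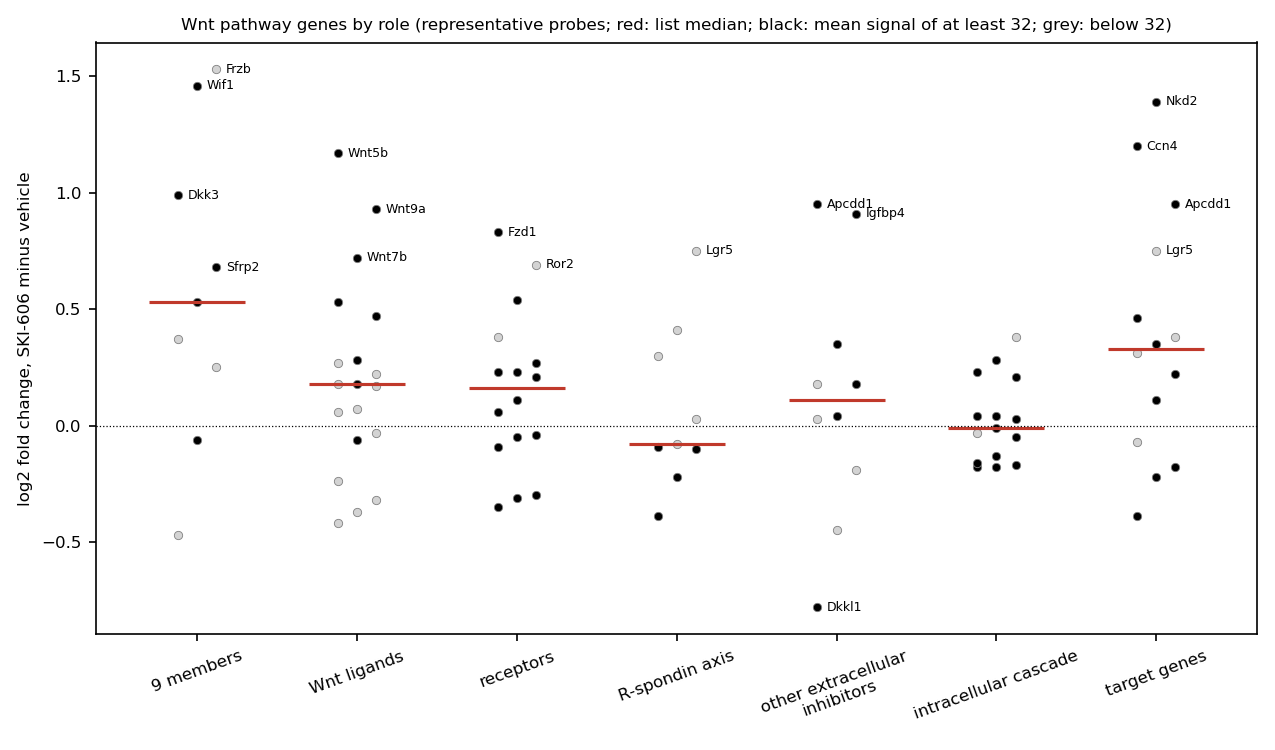
The vertical axis gives the log2 fold change, SKI-606 minus vehicle, of the 9 members and of the pathway genes by role, 1 point for the representative probe of each gene. Red lines are list medians, black points have a mean signal of at least 32 and grey points a lower one. The medians are 0.53 for the members, 0.18 for ligands, 0.16 for receptors, -0.08 for the R-spondin axis, 0.11 for other inhibitors, -0.01 for the cascade and 0.33 for targets.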

How the data were processed

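RNA of 8 tumours was read on Affymetrix arrays, per the labels. The deposited values are linear ratios per probe and array, and no source used here names the software or normalization behind them. From the values themselves, the deposited ratio is a whole-number signal divided by the array median and then by the probe median over arrays, or by a constant for dim probes. The signals were recovered as the smallest whole numbers giving the ratios (tolerance 0.002), which gave back 100.0% of 45101 probes within a relative 0.0001. On 5000 simulated probes 99.8% were recovered exactly, and a missed probe is off by a common factor.

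The plan had these signals in view. They were quantile normalized after leaving out 64 control probes, 16 was added, and log2 values were fitted with limma 3.58.1 (lmFit and eBayes, R 4.3.3) over all 45037 probes, with Benjamini-Hochberg adjustment. Probe names came from the platform annotation (34945 probes with 1 symbol, 932 with several, 9160 unnamed here), of which 34741 matched the RefSeq gene table. A gene is represented by its probe of highest mean signal. Every member probe is given. In each pathway list up to 3 genes of smallest p with a mean signal of at least 32 are named, and genes alike are the 3 of highest Pearson r per member that was not dim. The members, lists and alternatives were chosen with earlier results of these data known. Alternatives were the pseudocount, the normalization, the deposited ratios, a filter on dim probes, the mean of all probes of a gene, array weights, a replicate block and left-out samples. No label pairs the samples by replicate number. The correlations of same-numbered deviations from the group means were 0.02, 0.11, -0.15 and -0.11. With so few samples these cannot decide whether a pairing existed. No detection calls, dates or batches were given, and the number of arrays limits the precision.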

Additional observations from a re-analysis of the deposited data

Results flagged for a closer look

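In 34 groups of 4 log2 values (17 probes in 2 groups), 1 sample lay far from the other 3. For the Sfrp1 probe with a log2 fold change of 0.32, vehicle sample 2 was at 5.61, with a gap to its neighbour of 0.93 of the range of the vehicle group, which is above Dixon's critical value for 4 samples. Chance alone marks about 1 in 20 such groups. In the Sfrp1 probe of highest mean the same sample was not set apart.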

How the results depend on the processing

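In each alternative 0 probes, and 0 member probes, passed an adjusted p under 0.05. The number of member probes at an unadjusted p under 0.05 was 3 of 17 in the reported fit. It was 1 with a pseudocount of 64, 6 with scaling to a common median and 1 of the 10 that were not dim. Array weights gave 5, and the replicate block, a pairing by number that no label states, gave 7. With single samples left out, it ranged from 1 (SKI-606 sample 1 or vehicle sample 3) to 8 (SKI-606 sample 3). Dropping SKI-606 sample 2 gave 6. The share of all probes at this threshold moved too, from 8.37% in the reported fit. It was 6.06% (SKI-606 sample 1), 6.19% (vehicle sample 3), 10.39% (SKI-606 sample 3) and 10.93% (SKI-606 sample 2) when these were dropped. It was 8.26% with a pseudocount of 64, 9.21% with the common median and 10.99% among probes that were not dim. Array weights gave 9.28% of all probes, and the replicate block 8.56%. The value of Frzb stayed above 0 in the 17 alternatives run for it, and that of Dkk1 below 0, between -1.74 and -0.16. Sfrp4 turned to 0.17 with scaling to a common median, to 0.20 on the deposited ratios, and ranged from -0.25 to 0.10 when single samples were left out. Without SKI-606 samples 1 and 4 and vehicle sample 3, Sfrp1 turned to -0.26, Dkk3 to -0.12 and Dkk2 to -0.13. Over all probes the median difference was -0.021 in the reported fit and 0.096 on the deposited ratios. For all of these the cause was not tested. Signals of Frzb, Sfrp5, Dkk1 and Dkk2 averaged below 32, which limits their values.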
